A study of Gallus gallus with 8 samples.

Results

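Adipocyte genes and fatty acid binding genes were followed in cartilage cells of the chick growth plate, through the 10 genes ADIPOQ, FABP4, FABP7, PPARG, LPL, CD36, PLIN1, CIDEC, CEBPA and ADIPOR1. They were chosen by name, with earlier results of these data known. Every probe set whose only gene symbol in the platform annotation was one of the 10 was used. This gave 17 probe sets for 10 of the 13009 genes with a symbol of their own. A probe set is a group of array probes that read 1 transcript or a few related ones. PPARG had 3 probe sets, PLIN1 had 4, CD36 and CEBPA had 2 each, and every other gene had 1.

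RNA came from chondrocytes of the growth plate of the tibiotarsus, a leg bone of birds, and was read on Affymetrix chicken arrays. The 4 proliferative arrays carried dividing chondrocytes from chicks 3 weeks old, and the 4 hypertrophic arrays carried enlarged, late-stage chondrocytes from chicks 1 day old. Both groups were pools of isolated cells, and the labels name no treatment, strain or genetic change. Since stage and age changed together, their effects cannot be told apart. No label ties the arrays of a group to separate birds or pools; the p-values then measure only how these arrays vary, which may be technical.

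Fat cells store triglyceride in droplets, and the genes followed here cover that programme from its regulators to its products. The nuclear receptor PPARG and the factor CEBPA switch it on. LPL frees fatty acids from lipoproteins, CD36 takes them up, FABP4 and FABP7 carry them inside cells, PLIN1 and CIDEC coat and enlarge the droplet, and ADIPOQ, or adiponectin, is secreted by fat cells and acts through receptors such as ADIPOR1. In mammals some of these genes are also active outside fat, FABP4 in capillary endothelium and macrophages and FABP7 in glia.

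The values are log2 RMA values, in which each step of 1 is a doubling. Differences are hypertrophic minus proliferative, from limma across the 38439 probe sets, with a threshold of 0.05 on the Benjamini-Hochberg adjusted p and the standard error after the sign ±. A background level of 4.75 was the highest 95th percentile, over the arrays, of 744 probe sets whose IDs lack the chicken prefixes and which carry no gene symbol, mostly viral and reporter sequences. In both groups arrays 3 and 4 gave almost the same values. Across 5344 bright probe sets their difference had an SD of 0.175 (proliferative) and 0.194 (hypertrophic), whereas the SD of every other within-group pair lay between 0.365 and 0.958. A second fit was therefore run, in which arrays 3 and 4 were averaged and counted once in each group. Its result is given below for ADIPOQ, FABP4 and LPL. For the lipid lists the genes that passed in it are named, but most calls there carry values of the main fit only. Calls of cell type markers are given from the main fit alone, which counts arrays 3 and 4 as separate. Fits that left out 1 array are also given. Leaving out array 3 or array 4 keeps its near copy, so those fits do not test the weight of that pair. Chondrocyte markers such as COL2A1, ACAN and MATN1 were bright: 11 of 12 listed markers were measured, and none had both group means below background. Of the 11, 1, MATN3, was lower in hypertrophic cells, against 5.6% of all genes.

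Among the 10 genes, the transcripts of ADIPOQ and FABP4 were higher in hypertrophic cells and that of LPL was lower. These 3 of 17 probe sets passed, 17.6%, against 8.76% of all probe sets tested, and 4.49% and 4.27% of all were higher and lower. Many of those probe sets carry no gene symbol. Over all genes, each read by its brightest probe set, 12.9% passed. The other 14 did not pass. An unadjusted p under 0.05 was found for 9 of the 17, all 3 PPARG probe sets among them, against 22.5% of all probe sets and 29.9% of all genes. Separated groups, with no overlap of arrays, were seen in 7 of the 17, against 15.2% of all probe sets and 20.3% of all genes. The genes were chosen with earlier results of these data known, and probe sets of the same gene were counted separately. These shares are therefore no test of the 10 genes as a set. On at least 4 arrays 12 of the 17 were above background. The median difference was 0.081 over the 17 probe sets and -0.029 over all. With arrays 3 and 4 averaged, FABP4 alone passed, against 1.96% of all probe sets. The droplet genes PLIN1 and CIDEC, which define fat cells, did not pass in either setting.

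**Figure D1:**
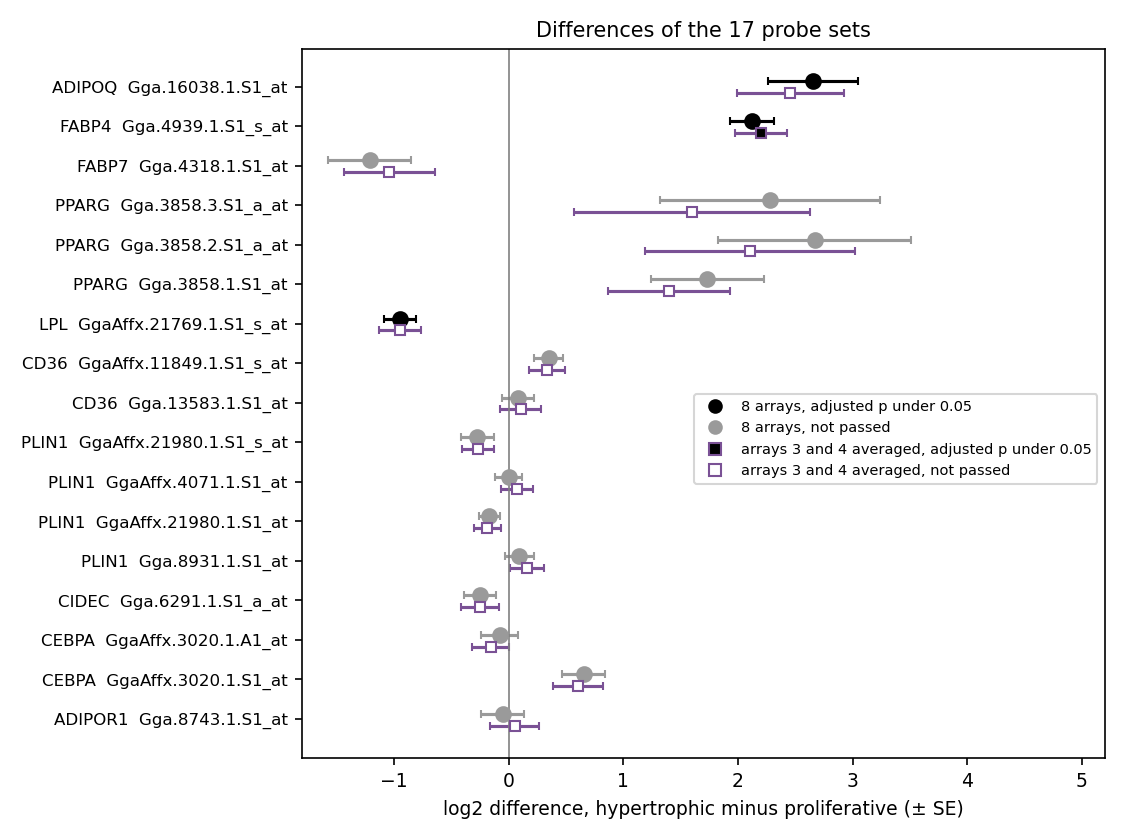
Log2 difference, hypertrophic minus proliferative, with its standard error, for each of the 17 probe sets; circles use all 8 arrays and squares count the average of arrays 3 and 4 once, and probe sets of a gene run from the brightest down. ADIPOQ and FABP4 lie above 0 and LPL below 0 with black circles (passed, grey if not), and FABP4 alone has a filled square.

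ADIPOQ, the adiponectin gene (NCBI gene 404536), lies on chromosome 9 (GRCg7b, 4886000 to 4890655). Proliferative arrays 1 to 4 read 4.18, 4.36, 4.04 and 4.38, all below the background level, and hypertrophic arrays 1 to 4 read 5.53, 7.12, 7.29 and 7.64, all above it. The groups did not overlap, and hypertrophic array 1 lay closest to the proliferative cells. ADIPOQ rose by 2.65 ± 0.40 (n = 4 arrays per group, adjusted p = 0.00534). Because the proliferative level was not well above background, the hypertrophic mean is better read as at least 4.41-fold higher, a bound on the estimate that leaves out sampling error. The adjusted p was 0.0553 with arrays 3 and 4 averaged, where the difference was 2.46 ± 0.47, and the call held in all 8 fits that left out 1 array (adjusted p up to 0.0240).

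The rise of ADIPOQ was not equal over the hypertrophic arrays. Arrays 1 and 2 alone gave a difference of 2.06 and arrays 3 and 4 alone gave 3.25. The order of the 4 hypertrophic arrays in ADIPOQ was also their order on the first principal component of all probe sets, with scores of 6.93, 46.0, 69.1 and 77.0, against -53.6 to -44.5 on proliferative arrays. Hypertrophic array 1 was thus the one closest to proliferative cells both in ADIPOQ and on this component.

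FABP4, the fatty acid binding protein of fat cells (NCBI gene 374165), lies on chromosome 2 (GRCg7b, 121036471 to 121039862). The suffix of its probe set ID marks probes that can match more than 1 transcript. It read 3.95, 4.04, 4.36 and 4.00 on proliferative arrays 1 to 4, below background, and 6.75, 5.96, 5.91 and 6.23 on hypertrophic arrays 1 to 4. All hypertrophic arrays lay above all proliferative ones, and here hypertrophic array 1 was the highest. FABP4 rose by 2.12 ± 0.19 (adjusted p = 6.51e-04), with a bound of at least 2.75-fold against the background level. It passed in all 19 alternative settings (adjusted p up to 0.0112), that with arrays 3 and 4 averaged among them. ADIPOQ and FABP4 therefore shared the direction of the group difference but not the order of the hypertrophic arrays.

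FABP7, the brain-type member of the same family (NCBI gene 396246), on chromosome 3 (GRCg7b, 60863627 to 60867040), was measured above background in both groups. It read 7.45, 8.22, 7.79 and 7.36 on proliferative arrays and 7.23, 7.06, 5.68 and 6.0 on hypertrophic arrays. The groups did not overlap, but hypertrophic arrays 1 and 2 lay just under the proliferative range while arrays 3 and 4 were clearly lower. The difference was -1.21 ± 0.36 and did not pass (adjusted p = 0.0744, 95% interval -2.03 to -0.40 before adjustment). It was -0.69 on arrays 1 and 2 and -1.73 on arrays 3 and 4. FABP7 passed in 5 of 19 alternatives, among them the fit without hypertrophic array 1 (adjusted p = 0.0246), and had adjusted p = 0.253 with arrays 3 and 4 averaged.

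LPL, lipoprotein lipase, the enzyme that releases fatty acids from circulating triglyceride (NCBI gene 396219), lies on the Z chromosome (GRCg7b, 55215002 to 55232438). Its probe set, which can match more than 1 transcript, read 7.65, 7.72, 7.88 and 7.86 on proliferative arrays and 6.45, 7.02, 6.93 and 6.92 on hypertrophic arrays. The groups were well separated, and the spread within each was small. LPL fell by 0.95 ± 0.14, which is 1.93-fold lower (adjusted p = 0.00521). The size was nearly the same on arrays 1 and 2 (-0.95) and on arrays 3 and 4 (-0.94). With arrays 3 and 4 averaged the adjusted p was 0.0547, and the call held in all 8 fits without 1 array (adjusted p up to 0.0239).

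Birds carry ZZ in males and ZW in females, and the labels do not give the sex of the pooled chicks. The median of 17 W-linked genes was 4.03 and 4.02 on proliferative arrays 3 and 4, below background, against 5.37 to 6.01 on the other 6 arrays. W-linked transcripts were thus lower on that pair than elsewhere. On arrays 1 and 2 alone, where all 4 arrays had W-linked medians of 5.43 to 6.01, the LPL difference was -0.95 and did not pass (adjusted p = 0.0968). That fit was chosen after seeing the data, and the part of sex in the LPL difference was not tested. The median difference of 605 Z-linked genes was -0.051. Their medians were 5.8, 5.8, 6.0 and 5.9 on proliferative arrays 1 to 4. On hypertrophic arrays 1 to 4 they were 5.7, 6.0, 6.0 and 6.1. As in LPL, proliferative arrays 3 and 4 were the highest of their group and hypertrophic array 1 the lowest. Hypertrophic arrays 2 to 4 ranked differently in LPL. Differences given for arrays 3 and 4 alone, in any gene, compare groups that also differed in W-linked level. The part of sex in them was not tested.

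**Figure D2:**
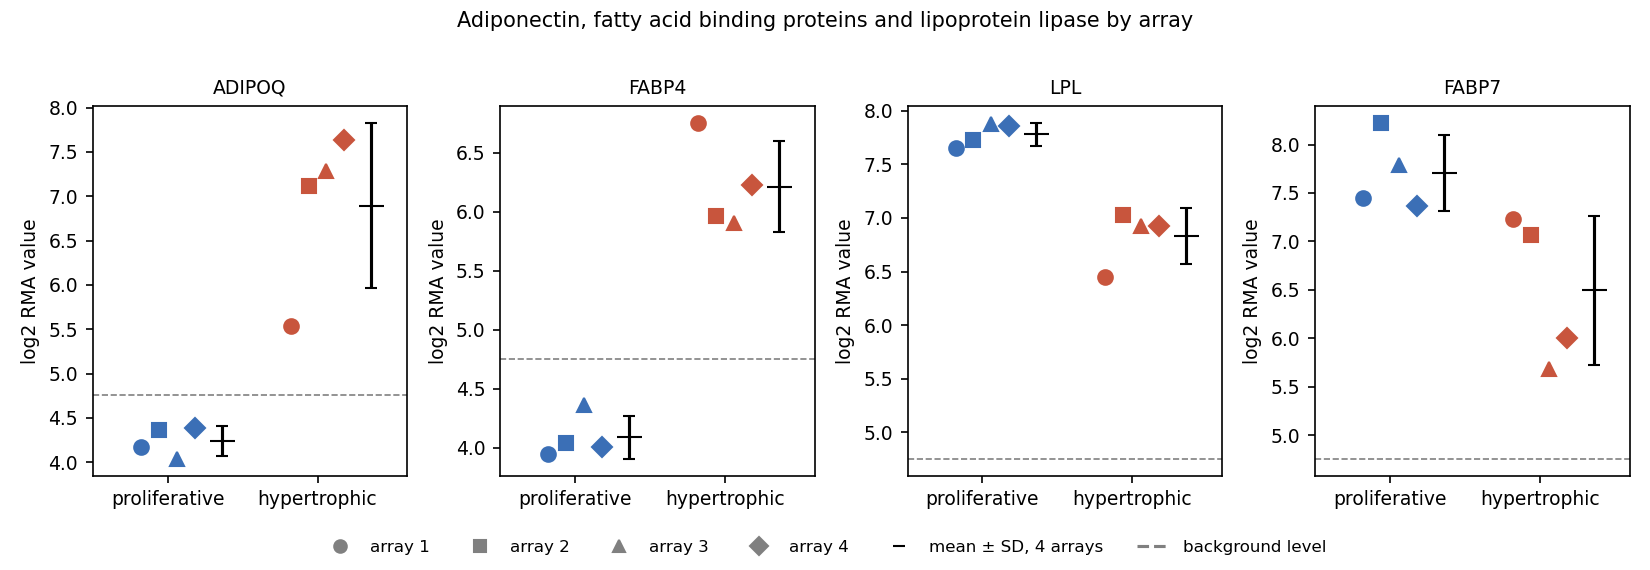
Log2 RMA values of ADIPOQ, FABP4, LPL and FABP7 on each array, by group, with the mean ± SD of 4 arrays; the dashed line is the background level of 4.75, and the vertical axes do not start at 0. All proliferative values of ADIPOQ and FABP4 lie under the line, hypertrophic array 1 is the lowest of its group in ADIPOQ and LPL and the highest in FABP4, and in FABP7 hypertrophic arrays 3 and 4 sit apart from arrays 1 and 2.

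PPARG, the nuclear receptor that drives fat cell differentiation (NCBI gene 373928), lies on chromosome 12 (GRCg7b, 5019526 to 5074079). It was below background in proliferative cells and high on hypertrophic arrays 3 and 4 only, with arrays 1 and 2 below background. Its brightest probe set read 3.48, 3.88, 3.60 and 3.64 on proliferative arrays and 3.86, 3.97, 7.86 and 8.04 on hypertrophic arrays. Hypertrophic array 1 fell inside the proliferative range and array 2 just above it. The other PPARG probe sets gave the same split. The second brightest read from 2.97 to 3.31 on proliferative arrays and 3.54, 4.66, 7.52 and 7.57 on hypertrophic arrays. The dimmest read from 2.93 to 3.18 on proliferative arrays and 3.73, 3.85, 5.80 and 5.87 on hypertrophic arrays.

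None of the 3 passed over 8 arrays. The differences were 2.28 ± 0.96, 2.67 ± 0.84 and 1.73 ± 0.49, with adjusted p = 0.198, 0.0885 and 0.0642, and with arrays 3 and 4 averaged adjusted p = 0.538, 0.322 and 0.255. Since all proliferative arrays were below background, these differences are not measured sizes, and the bounds against the background level were 1.18, 1.07 and 0.059 on the log2 scale. Arrays 3 and 4 alone gave differences of 4.33, 4.35 and 2.74, and arrays 1 and 2 alone gave 0.23, 0.99 and 0.73. Since arrays 3 and 4 were nearly identical, the high level rests on what may be a single sample. Without hypertrophic array 1 the second brightest and the dimmest passed (adjusted p = 0.00979 and 0.0171). In all, they passed in 2, 4 and 6 of 18 alternatives, each including arrays 3 and 4 alone and array weights.

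CEBPA, the C/EBP factor that works with PPARG in fat cells (NCBI gene 427549), lies on chromosome 11 (GRCg7b, 9940192 to 9941462), and its probe sets disagreed. The dimmer probe set read 4.87, 4.94, 4.96 and 5.23 on proliferative and 5.10, 5.73, 5.99 and 5.78 on hypertrophic arrays, so that hypertrophic array 1 overlapped with the proliferative group and the other 3 lay above it. Its difference was 0.65 ± 0.19 (adjusted p = 0.0671), and it passed in 4 of 19 alternatives, among them the fit without hypertrophic array 1 (adjusted p = 0.00370). The brighter one read 5.13 to 5.88 on proliferative and 5.35 to 5.68 on hypertrophic arrays and differed by -0.079 ± 0.16 (adjusted p = 0.856). Its sign turned under array weights, with arrays 3 and 4 alone and without proliferative array 2. Both probe sets had values close to the background level of 4.75, which limits their precision.

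**Figure D3:**
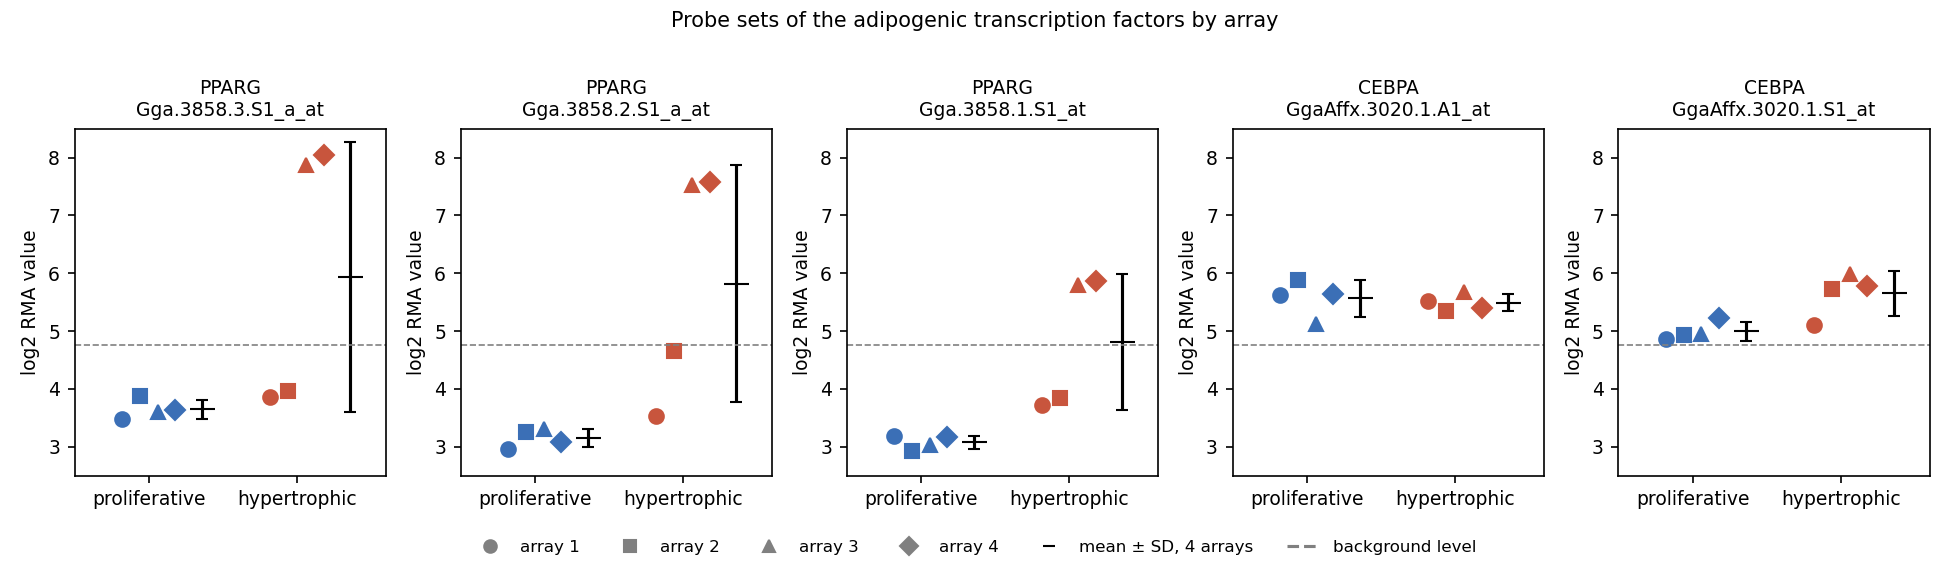
Log2 RMA values of the 3 PPARG and 2 CEBPA probe sets, from the brightest down, on each array, with the mean ± SD of 4 arrays and the background level of 4.75 as a dashed line; the vertical axis starts at 2.5. In all PPARG probe sets hypertrophic arrays 3 and 4 lie above the line and arrays 1 and 2 below it.

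CD36, the membrane receptor that takes up long-chain fatty acids (NCBI gene 417730), lies on chromosome 1 (GRCg7b, 11389956 to 11428714) and was not well above background on any array. Its brighter probe set read 3.70, 3.95, 3.65 and 3.59 on proliferative and 3.96, 4.30, 3.93 and 4.10 on hypertrophic arrays, and the dimmer one read from 3.52 to 4.08 over all 8. Neither passed (adjusted p = 0.131 and 0.817), and no fold is given because both groups were below background. The brighter one passed in 1 of 18 alternatives, array weights (adjusted p = 0.0361).

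PLIN1, or perilipin (NCBI gene 415487), coats the lipid droplet of fat cells and lies on chromosome 10 (GRCg7b, 12835329 to 12839883). Its brightest probe set can match more than 1 transcript. That probe set read 6.65, 6.67, 6.24 and 6.67 on proliferative and 6.45, 6.38, 6.30 and 6.0 on hypertrophic arrays. The groups overlapped, and the difference of -0.27 ± 0.14 did not pass (adjusted p = 0.311, 95% interval -0.60 to 0.050). In order of falling brightness, the other 3 probe sets differed by -4.12e-04, -0.17 and 0.092, with adjusted p from 0.329 to 0.999. In the one of these that differed by -0.17 the groups did not overlap, at 5.16 to 5.34 on proliferative and 5.01 to 5.14 on hypertrophic arrays, yet the difference was small.

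CIDEC, which enlarges droplets by lipid transfer between them (NCBI gene 100859733), lies on chromosome 11 (GRCg7b, 18018255 to 18020133). Its probe set read 6.09, 6.48, 5.95 and 6.11 on proliferative and 6.04, 6.04, 5.72 and 5.86 on hypertrophic arrays. The ranges overlapped, and the difference was -0.25 ± 0.14 (adjusted p = 0.355, 95% interval -0.56 to 0.069). No probe set of PLIN1 or CIDEC passed in any of the 19 alternatives. The upper ends of the 95% intervals were 0.050 for the brightest PLIN1 probe set, 0.069 for CIDEC and at most 0.38 for the others. The interval of ADIPOQ on the same arrays was 1.76 to 3.55. It was computed with proliferative values below background, so it is not a measured size and cannot be compared directly with these limits. The 0.38 came from the dimmest PLIN1 probe set, with means of 4.93 (proliferative) and 5.02 (hypertrophic). Those means were close to the background level, which limits their precision, so that interval is a weak bound on a rise.

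ADIPOR1, a receptor for adiponectin (NCBI gene 421148) on chromosome 26 (GRCg7b, 1143056 to 1149555), was measured well above background on every array. It read 9.38, 8.98, 9.12 and 9.25 on proliferative and 9.38, 9.51, 8.77 and 8.86 on hypertrophic arrays. Hypertrophic arrays 1 and 2 lay at or above the proliferative range and arrays 3 and 4 below it. The difference of -0.051 ± 0.19 did not pass (adjusted p = 0.925, 95% interval -0.47 to 0.37). Its sign followed the pair used, 0.27 on arrays 1 and 2 and -0.37 on arrays 3 and 4.

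Several cell types other than fat cells can carry these transcripts, and some of their markers differed on the same arrays. Of 7 defining fat cell markers, 4 were measured, and ADIPOQ was the one that passed; PLIN1, CIDEC and CIDEA did not. The summed linear level of these 4 was 201 to 263 on proliferative arrays. It was 246, 330, 337 and 367 on hypertrophic arrays 1 to 4, so the groups overlapped at hypertrophic array 1 only. PLIN1, CIDEC and CIDEA differed by -0.27, -0.25 and -0.054, so the higher sums came from ADIPOQ. The sum is thus no measure of fat cells apart from ADIPOQ. Over all genes 7.34% were higher and 5.6% lower, the shares to set beside the marker counts here and below. Of 17 endothelial markers 6 were higher, and 11 did not pass. Among the 6, TEK differed by 1.33, CDH5, above background on 1 of 4 proliferative arrays, by 3.06, and FLT1, below background on all proliferative arrays, by at least 0.52 on the log2 scale. Among the 11, KDR and EMCN had both group means below background. PECAM1 did not pass (adjusted p = 0.475), and CLDN5, ROBO4 and FLT4 leaned lower in hypertrophic cells. The summed level of the 17 was 1068 to 1292 on proliferative against 1528 to 1964 on hypertrophic arrays.

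Endothelial, leukocyte and osteoclast markers all summed highest on hypertrophic array 1, where FABP4 was highest too. Of 16 macrophage and leukocyte markers 3 were higher, 1 was lower and 12 did not pass, with sums of 536 to 632 on proliferative and 1140 to 1844 on hypertrophic arrays. Of 10 osteoclast markers 3 were higher (ATP6V0D2, TNFRSF11A and MMP9), 1, NFATC1, was lower by 0.83, and 6 did not pass. Their sums were 1051 to 1894 and 3945 to 7263. MMP9, at 11.29 to 11.96 on hypertrophic arrays, was the brightest there and so weighed most in those sums. CTSK did not pass (adjusted p = 0.159), and OCSTAMP, DCSTAMP and CALCR had both group means below background. Within the hypertrophic group the leukocyte and osteoclast sums were lowest on arrays 3 and 4, but the leukocyte markers called higher did not share the same order. CD74, the brightest, read 9.79, 8.63, 7.77 and 7.69 on hypertrophic arrays 1 to 4. LAPTM5 read 6.95, 8.39, 8.32 and 8.48 and IRF8 read 6.36, 7.56, 7.83 and 7.90, both lowest on array 1. PTPRC, a marker of all leukocytes, had both group means below background. In such bulk samples more cells of a type and more RNA per cell cannot be told apart, and the part of these cell types in the differences of ADIPOQ, FABP4 and LPL was not tested.

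**Figure D4:**
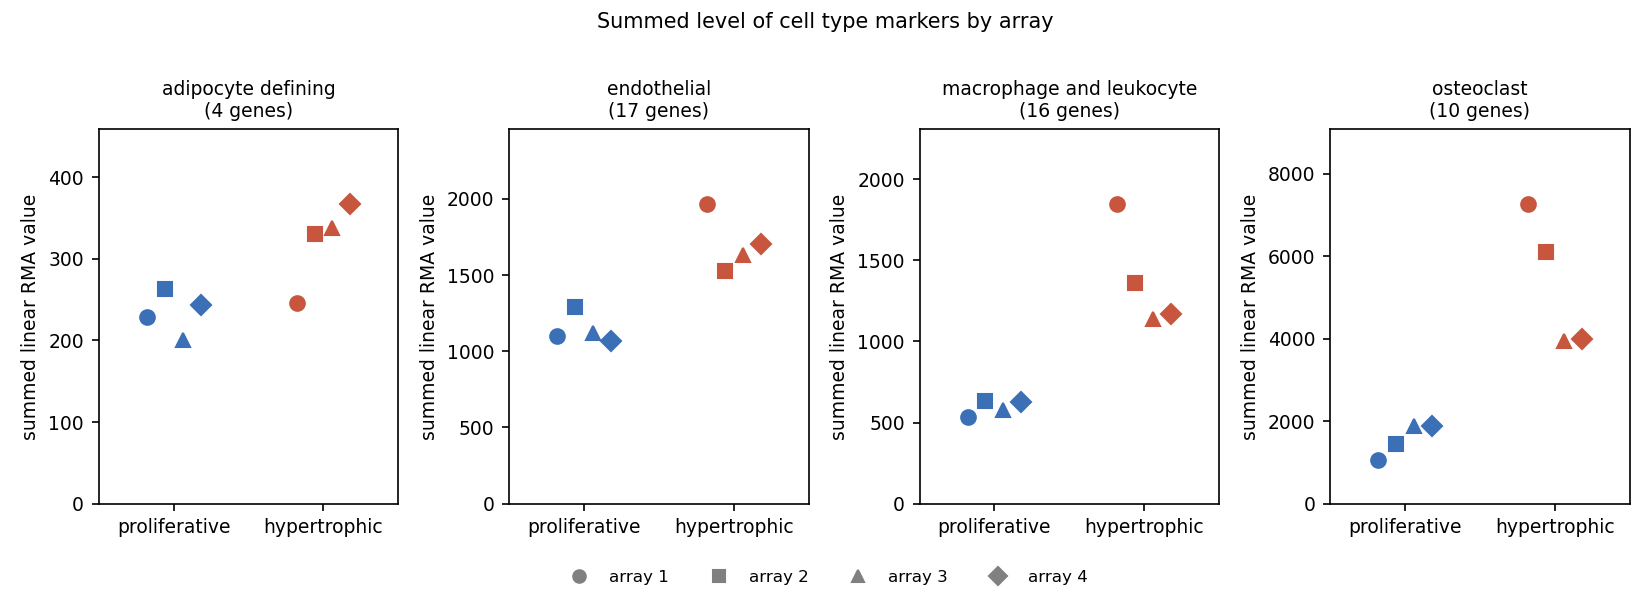
Sum of the linear RMA values of the markers of 4 cell types on each array, by group; the vertical axes start at 0. Endothelial, leukocyte and osteoclast sums are higher on every hypertrophic array than on any proliferative array. The sums of the 4 fat cell markers overlap at hypertrophic array 1 only. Bright markers weigh most in a sum, as MMP9 does among osteoclast markers on hypertrophic arrays.

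Genes whose profile over the 8 arrays lay nearest to each of 2 members were listed by the root mean square distance between profiles, each minus its own mean. Nearest to ADIPOQ were ME3, LYG2, ASS1, CENPV and SPATA13, at distances of 0.122 to 0.194. Of these, ME3 is a mitochondrial malic enzyme and ASS1 an enzyme of arginine synthesis. ME3 read 4.22 to 4.64 on proliferative arrays and 5.73, 7.33, 7.27 and 7.72 on hypertrophic arrays, with array 1 again the lowest of its group. Nearest to FABP4 were MYCT1, MBD2, COLEC12, LRRC32 and TFPI, at 0.188 to 0.236. TFPI is an inhibitor of coagulation and COLEC12 a scavenger receptor. MYCT1 read 3.66 to 4.18 on proliferative and 6.69, 5.96, 5.39 and 5.93 on hypertrophic arrays, with array 1 the highest, as in FABP4. Such likeness follows from the choice by profile. The proliferative values of ME3 and MYCT1 were all below background.

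Other genes of lipid handling were grouped into 9 lists that held 168 genes, of which 135 were measured. Of these 11 were higher, 7 were lower and 117 did not pass. The share of 13.3% lay close to the 12.9% of all genes that passed, of which 7.34% were higher and 5.6% lower, so it is no result about lipid genes. The median difference was 0.0091, against -0.015 over all genes, and 31 of the 135 had both group means below background, against 23.9% of all genes. With the arrays centred on ribosomal protein genes the split of the lists was 10 higher and 14 lower. All probe sets tipped the same way in that setting, with 1572 higher and 2411 lower. With arrays 3 and 4 averaged RBP7 and FURIN passed, against 3.24% of all genes, and 8 of the 18 calls held in all 8 fits without 1 array.

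Among other carriers, 1 of 11 was higher and none was lower. RBP7, a small retinol carrier of the same protein family as the FABPs, read 3.26, 4.08, 3.86 and 3.77 on proliferative and 6.43, 5.29, 5.81 and 5.97 on hypertrophic arrays. As in FABP4, the proliferative values were below background and hypertrophic array 1 was the highest. RBP7 rose by 2.13 ± 0.25 (adjusted p = 0.00207), a bound of at least 1.12 on the log2 scale, and 1 of its 2 probe sets passed.

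Of 26 further fat cell transcription factors and partners of PPARG, 2 were higher, 1 was lower and 23 did not pass. EBF1, an early factor of fat and B cell differentiation, rose by 0.90 ± 0.20, and ZNF423, a marker of cells committed to fat in mammals, rose by 0.56 ± 0.15. RXRG, one of the retinoid receptors that pair with PPARG, fell by 1.03 ± 0.23, from 5.96 to 6.44 on proliferative arrays to 4.83 to 5.90 on hypertrophic arrays. All 3 calls were fragile. RXRG and EBF1 missed the threshold in 6 and ZNF423 in 7 of the 8 fits without 1 array. The adjusted p there was up to 0.0831 for RXRG, 0.0898 for EBF1 and 0.126 for ZNF423. Of the probe sets, 1 of 2 passed for RXRG and for EBF1, and 1 of 3 for ZNF423.

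Around LPL, 2 of 15 genes were higher, 2 were lower and 11 did not pass. FURIN, a protease that cleaves LPL among many other substrates, fell by 1.10 ± 0.18 (adjusted p = 0.00833, or 0.0465 with arrays 3 and 4 averaged). LMF2, a relative of the lipase maturation factor LMF1, fell by 1.17 ± 0.25 and missed the threshold in 4 of 8 fits without 1 array (adjusted p up to 0.0597). APOA1, the main protein of high-density lipoprotein, rose by 0.96 ± 0.14, with both of its probe sets past the threshold.

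The gene annotated as GPIHBP1, which in mammals anchors LPL on capillaries, rose by 3.56 ± 0.92 (adjusted p = 0.0450). It read 4.40, 5.79, 8.21 and 8.08 on proliferative and 8.49, 9.97, 11.16 and 11.10 on hypertrophic arrays. Within each group arrays 3 and 4 were the highest and array 1 the lowest, the highest proliferative and the lowest hypertrophic value lay close together, and the call was lost in 7 of 8 fits without 1 array (adjusted p up to 0.114). On proliferative array 1 it was below background.

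In uptake and activation of fatty acids none of 15 genes was higher and 2 were lower. ACSBG2, an acyl-CoA synthetase, fell by 0.94 ± 0.14 (adjusted p = 0.00492), and SCARB1, a lipoprotein receptor related to CD36, fell by 0.74 ± 0.19 (adjusted p = 0.0474; up to 0.130 without 1 array). Among 8 genes of droplets and lipolysis none passed and 3 had an unadjusted p under 0.05, against 29.9% of all genes, and the smallest adjusted p values were those of PNPLA3 (0.53 ± 0.16, adjusted p = 0.0760) and the lipase MGLL (0.38 ± 0.12, adjusted p = 0.0869). For MGLL, 2 of 5 probe sets passed. In triglyceride synthesis 2 of 12 were higher. LPIN2, a phosphatidate phosphatase, rose by 0.62 ± 0.10, with 1 of its 3 probe sets past the threshold. The acyltransferase GPAT3 rose by 1.15 ± 0.30, and its call was lost in 7 of 8 fits without 1 array (adjusted p up to 0.124).

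Adiponectin signalling held 18 measured genes, of which 2 were higher, 1 was lower and 15 did not pass. CDH13, or T-cadherin, which binds adiponectin in mammals, rose by 1.03 ± 0.18 (adjusted p = 0.00935). PRKAB1, a subunit of the energy sensor AMPK, rose by 0.62 ± 0.11. Of the probe sets, 2 of 3 passed for CDH13 and 1 of 2 for PRKAB1. C1QTNF3, a secreted relative of adiponectin that cartilage makes in mammals, moved the other way. It read 12.40, 12.25, 12.34 and 12.07 on proliferative and 11.30, 10.68, 9.86 and 9.95 on hypertrophic arrays, and fell by 1.82 ± 0.29 (adjusted p = 0.00771). These 3 calls held in all fits without 1 array and had adjusted p = 0.0798, 0.0571 and 0.0610 with arrays 3 and 4 averaged.

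Of 15 genes of fatty acid oxidation 14 did not pass. ACADS, a short-chain acyl-CoA dehydrogenase, rose by 0.80 ± 0.20 (adjusted p = 0.0435, up to 0.116 without 1 array), with 1 of its 2 probe sets past the threshold. Among 15 other fat cell genes the lipoprotein receptor VLDLR rose by 1.20 ± 0.30 (adjusted p = 0.0390) and the glucose transporter SLC2A1 fell by 0.72 ± 0.17 (adjusted p = 0.0326). Each of these last calls was lost in 5 of 8 fits without 1 array, with adjusted p up to 0.109 and 0.0904. The fat cell hormone LEP and the lipase LIPE had no probe set named for them alone; neither was analysed here.

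**Figure D5:**
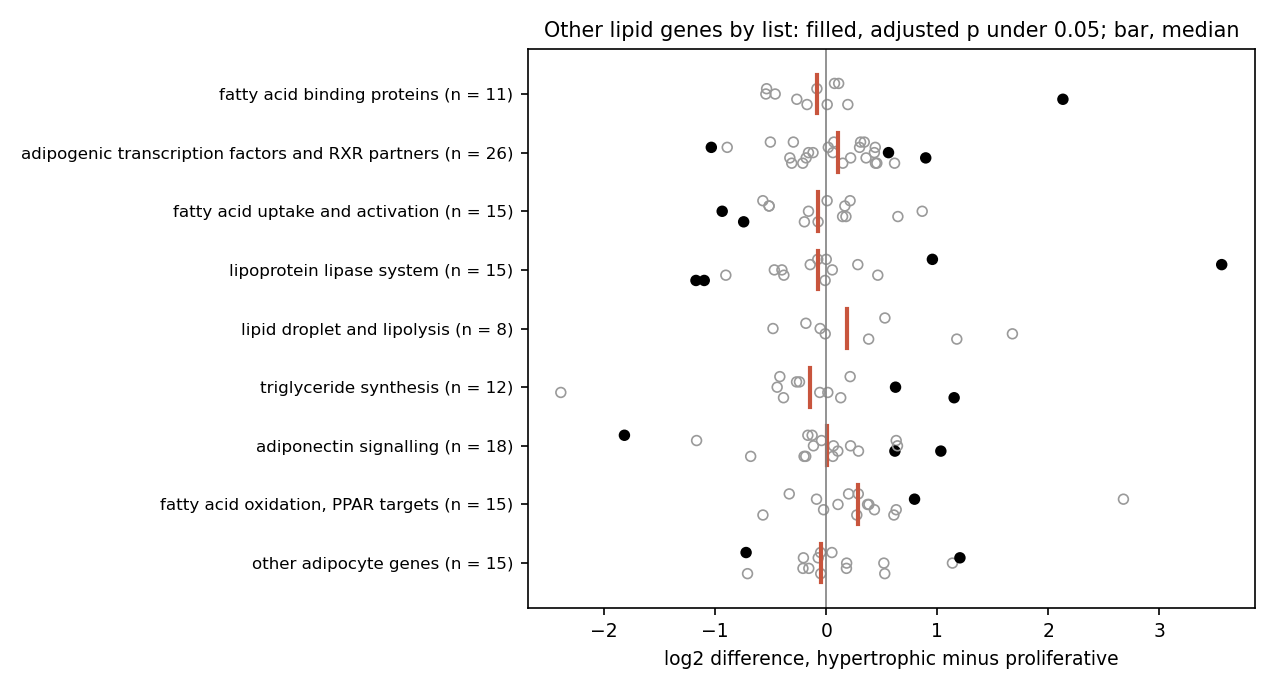
Log2 difference, hypertrophic minus proliferative, of each measured gene in 9 lists of lipid genes; filled points passed, and the vertical bar is the list's median. List medians lie between -0.15 and 0.29, and calls occur in both directions.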

How the data were processed

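Total RNA was labelled with biotin and read on 8 one-colour Affymetrix chicken arrays, 4 per group, grouped by the labels' titles. The deposited values are log2 expression values that the authors made with RMA, per the submitters' processing notes; its version is not given in the sources used here. RMA subtracts background, quantile-normalizes the arrays together and summarises the probes of a set, so a shift common to all genes is removed. The table holds 38535 probe sets; 96 control sets were left out. Array medians were 4.87 to 4.94. Arrays give no read depth; their number limits the precision.

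Probe sets were named from the platform annotation, 27168 with 1 symbol, 177 with several and 11094 with none, and symbols were updated from the RefSeq table (assembly GRCg7b), which supplied 26853. Coordinates are those of the RefSeq genes, not of the probes. For lists, each gene was represented by its brightest probe set (mean of the 8 arrays). Differences were tested with limma 3.58.1 (lmFit and eBayes, R 4.3.3) with group as the only term; p-values are two-sided and were adjusted by Benjamini-Hochberg across all 38439 probe sets. Intervals of 95% are not adjusted. Where the mean of a group was below background and that of the other above it, a lower bound was computed. Values of the other group were left as read, and only those of the lower group that were under the background level were raised to that level. For cell type markers, all proliferative arrays had to be below that level.

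The members and the lists were chosen with earlier results of these data known. All members were named. In each lipid list up to 4 genes with the largest difference among those past the threshold were named (the 2 of lowest p in a list without calls), and the 5 genes nearest in profile to ADIPOQ and to FABP4. Alternatives were other normalizations, filters, variance models, thresholds, leaving out each array, averaging arrays 3 and 4, and a replicate block. Same-numbered arrays deviated together weakly at most (correlations of deviations from -0.0087 to 0.222), so the numbers were not taken as pairs. Arrays 1 and 2 of the groups correlated at 0.011 to 0.320, and arrays 3 and 4 at -0.0087 to 0.265. Between arrays 1 and 2 of a group and arrays 3 and 4 of the other, correlations were -0.352 to -0.042. The source of this pattern was not tested. The procedure was tested on simulated data with independent arrays, which leaves out the likeness of arrays 3 and 4. Promoter and protein sequences were not used here.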

Additional observations from a re-analysis of the deposited data

Results flagged for a closer look

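In the brightest PLIN1 probe set proliferative array 3 read 6.24, apart from the other 3 proliferative arrays, of which the nearest read 6.65 and the farthest 6.67. The gap was 0.945 of the range of the group. It was 1 of 34 groups of 4 arrays tested in this way, and chance flags about 1 in 20.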

How the results depend on the processing

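The main counts were 3368 probe sets, 3 member probe sets and 18 list genes. In that order they were 7756, 9 and 43 with array weights, 755, 1 and 2 with arrays 3 and 4 averaged, 5533, 7 and 30 with arrays 1 and 2 against 3 and 4 as a factor, 3194, 3 and 16 with the replicate block, and, in fits chosen after seeing the data, 1169, 1 and 6 on arrays 1 and 2 alone and 9942, 8 and 59 on arrays 3 and 4 alone. The member count was 7 at a threshold of 0.1 and 3 at 0.01, and the list count was 32 with the probe set of lowest p. Without 1 array the counts ran from 1522 to 5035, 3 to 7 and 9 to 24: 7 members passed without hypertrophic array 1, and the list count fell to 9 without proliferative array 3 or 4 or hypertrophic array 4, to 10 without proliferative array 1 or hypertrophic array 3, and to 11 without hypertrophic array 2. Centring on ribosomal protein genes gave 1572 higher and 2411 lower probe sets, against 1726 and 1642. Of 318 alternative member values, 271 kept direction and side of the threshold, 4 lost the call, 22 gained it and 21 turned sign. The losses were ADIPOQ and LPL with arrays 3 and 4 averaged and on arrays 1 and 2 alone (adjusted p = 0.0694 and 0.0968 for the latter).

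Signs turned only in probe sets that did not pass. The dimmer CD36 probe set was -0.016 with ribosomal centring and -0.050 to 0.14 without 1 array. The second brightest PLIN1 probe set was 0.047 with cyclic loess, 0.073 with arrays 3 and 4 averaged, 0.22 on arrays 1 and 2 and -0.057 to 0.059 without 1 array, and the dimmest was -0.0045 with ribosomal centring, -0.019 with array weights and -0.11 on arrays 3 and 4. The brighter CEBPA probe set was 0.022 with array weights, 0.15 on arrays 3 and 4 and -0.23 to 0.025 without 1 array. ADIPOR1 was 0.0021 with cyclic loess, 0.055 with arrays 3 and 4 averaged, 0.27 on arrays 1 and 2 and -0.18 to 0.070 without 1 array. Averaging and leaving out arrays leave fewer samples; for the rest the cause was not tested. Same-numbered arrays did not all deviate together, but arrays 1 and 2, and arrays 3 and 4, tended to do so across the groups. Hypertrophic array 2 correlated best with proliferative array 1 (0.320). The promoter motif count was not run, and levels under the background of 4.75 carry only a bound.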

Other observations

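Some lipid genes that did not pass were, like PPARG, highest on hypertrophic arrays 3 and 4. They were chosen after their values were seen. PLIN2, which coats droplets in most cell types, read 9.13, 9.81, 9.64 and 9.72 on proliferative and 8.26, 10.07, 12.35 and 12.33 on hypertrophic arrays (1.18 ± 0.82, limma adjusted p = 0.475). G0S2, an inhibitor of the lipase PNPLA2, read 7.45, 7.08, 7.89 and 8.06 on proliferative and 6.94, 9.06, 10.62 and 10.58 on hypertrophic arrays (1.68 ± 0.74, adjusted p = 0.218). In both, hypertrophic array 1 lay below the whole proliferative group and array 2 above it. FABP3, a fatty acid binding protein chosen in the same way, went in the other direction, with hypertrophic arrays 3 and 4 the lowest. It read 10.37, 10.01, 10.16 and 10.28 on proliferative and 10.94, 10.69, 8.71 and 8.65 on hypertrophic arrays (-0.46 ± 0.52, limma adjusted p = 0.693).

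PDK4, a kinase that turns pyruvate dehydrogenase off, read 5.57, 7.69, 9.33 and 9.01 on proliferative and 8.28, 10.29, 11.86 and 11.87 on hypertrophic arrays (adjusted p = 0.141). Here arrays 3 and 4 stood high in both groups. LPIN1, a phosphatidate phosphatase, read 8.77, 8.40, 9.39 and 9.52 on proliferative and 4.84, 5.65, 8.08 and 7.95 on hypertrophic arrays, and its difference of -2.39 ± 0.70 did not pass (adjusted p = 0.0727). Its related gene LPIN2 passed in the opposite direction.

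Nearest in profile to the brightest PPARG probe set, a list added after the values were seen, were PTGS2, PRKG2, PHEX, F2RL2 and SBSPON, at root mean square distances of 0.330 to 0.541 over 8 arrays. PTGS2, a prostaglandin synthase, read 5.17 to 6.25 on proliferative arrays and 5.42, 6.15, 9.84 and 9.88 on hypertrophic arrays. PHEX, an endopeptidase of bone mineral metabolism, read 3.81 to 4.00 on proliferative and 4.66, 5.51, 8.30 and 7.92 on hypertrophic arrays.

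Among markers of other cells, 1 of 8 erythroid markers passed and was higher, against 7.34% of all genes. Erythroid sums were 1868 to 11434 on proliferative and 9817 to 11860 on hypertrophic arrays. Of 7 osteoblast markers none passed in limma and 3 had an unadjusted p under 0.05 (29.9% of all genes did). These were IBSP and DMP1, which differed by 2.62 and 1.90, and COL1A2, which differed by -0.48. Osteoblast sums were 6486 to 9950 on proliferative against 12456 to 16475 on hypertrophic arrays. IBSP, with means of 9.93 (proliferative) and 12.55 (hypertrophic), weighed most in that gap, while COL1A1 differed by -0.16. The part of osteoblasts was not tested. Of 7 muscle markers none passed, and 0 had an unadjusted p under 0.05.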
